A study of Mus musculus with 6 samples.

Results

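The proteasome subunit genes were taken as every symbol in the count table that begins with Psm, a letter from a to g and a digit. The pattern matched 50 of 24062 symbols. Of these, 49 encode subunits, activators, an inhibitor or assembly chaperones of the proteasome, and Psmc3ip, a cofactor of meiotic recombination (HOP2), shares the name pattern without being a proteasome gene. After removal of genes with low counts, 49 of the 50 were tested, and Psmb11 was not.

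The proteasome is the protease that degrades ubiquitin-tagged proteins in the cytosol and nucleus. Its 20S core is a barrel of alpha and beta rings in which the beta subunits Psmb5, Psmb6 and Psmb7 carry the active sites, and a 19S regulator on its end recognises, unfolds and feeds in the substrate. Interferon induces Psmb8, Psmb9 and Psmb10, which replace those active subunits in newly built cores (the immunoproteasome) and favour peptides for MHC class I. In fibroblasts the constitutive form dominates, and its substrates include the cyclin-dependent kinase inhibitor p27.

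Gene counts were available for 6 RNA samples of C57BL/6 mouse embryonic fibroblasts (MEFs, connective tissue cells grown from embryos), all collected at day 10. In 3 of them p27 (the product of Cdkn1b) had been delivered by lentivirus (p27OE), and the other 3 were labelled EV control. The p27OE titles and the treatment protocol describe senescent cells, the series design text non-senescent ones, so the groups are called here by their names alone. The labels give neither the promoter of the virus nor whether the samples were separate cultures. The p-values thus measure the spread between these samples, and how much of it is technical is not known. Within each group, Y-linked and Xist RNA differed between libraries, as given below. A dataset number stands in the EV control titles alone, and whether both groups were handled together is not stated, so group and preparation cannot be told apart.

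Library totals ran from 39183624 to 61219345 counts. Cdkn1b (chromosome 6, 134920401 to 134925513, GRCm38) had 167, 232 and 337 CPM in p27OE libraries, against 43.9, 31.5 and 32.3 CPM in EV control libraries, where CPM (counts scaled to library size with TMM factors) is the level of a gene. No library overlapped the other group, and p27OE over EV control was 2.77 ± 0.29 in log2 units (SE; adjusted p = 0.028 by edgeR quasi-likelihood). Library 1 of each group was the lowest in Y-linked RNA and the highest in Xist, and p27OE 2 lay between p27OE 1 and p27OE 3 in both. The summed CPM of 4 Y-linked genes was 1.95, 57.1 and 137 in p27OE libraries and 0.125, 126 and 124 in EV control libraries. Xist, from the inactive X, ran the other way, at 330.5, 164 and 0.457 CPM in p27OE libraries and 407, 5.67 and 0.680 CPM in EV control libraries. The 9 fibroblast markers (Col1a1, Vim and others) summed to between 45484 and 62927 CPM per library, while 4 endothelial markers reached at most 7.47 CPM and 4 epithelial markers at most 8.15 CPM.

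Of the proteasome genes, 1 assembly chaperone was called lower in p27OE than in EV control cells by edgeR, and the log2 fold changes of the 31 core and 19S genes lay between -0.22 and 0.12. Of the 48 proteasome genes tested, 0 rose and 1, Psmg1, fell at an edgeR adjusted p under 0.05, with 2 at an unadjusted p under 0.05. Among all 13990 genes tested, 2.61% were called, 1.77% higher and 0.843% lower, so the proteasome share was close to the background. The proteasome genes had a median log2 fold change of -0.05, with 31 below 0 and 17 above, against a median of 0.01 over all genes tested, of which 48.2% were below 0. The groups did not overlap for 3 of the 48 genes (6.25%), namely Psmg1 and Psmg2 below and Psma8 above, whereas 33.3% of all genes tested did not overlap.

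**Figure D1:**
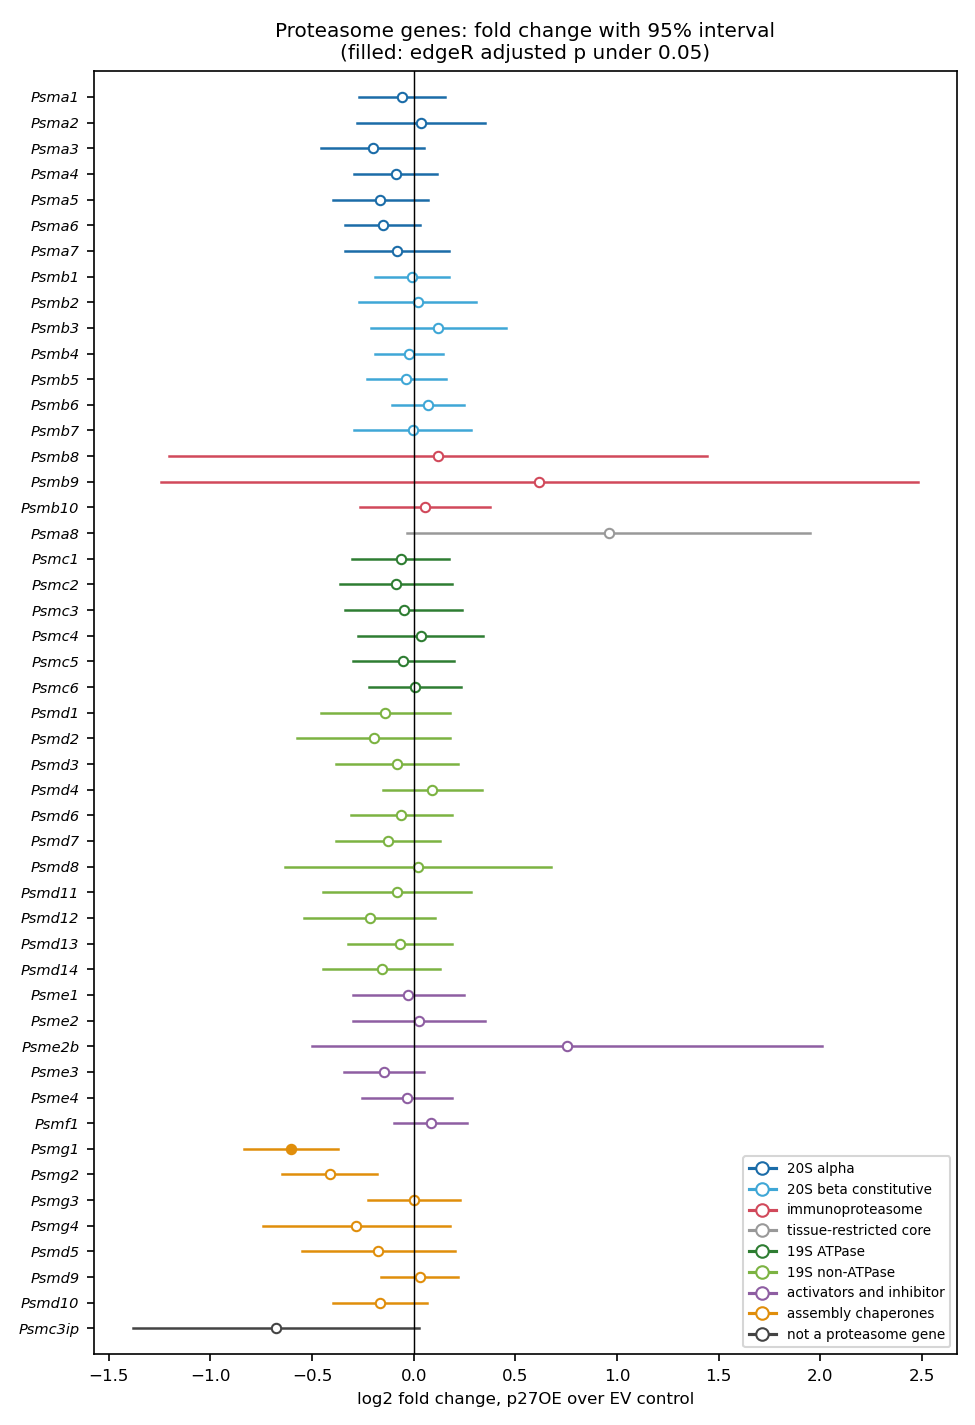
Log2 fold change of p27OE over EV control (horizontal axis) with its 95% interval for each proteasome gene tested, grouped by role down the page. The core and 19S genes sit between -0.22 and 0.12 with intervals across 0, and Psmg1, at -0.60, is the called gene.

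None of the 14 constitutive genes of the 20S core was called by edgeR or had an unadjusted p under 0.05, and the groups overlapped for each. The 7 alpha subunits, which form the outer rings and the gate, had log2 fold changes from -0.20 (Psma3) to 0.03 (Psma2), with 6 below 0 and 1 above. The 7 constitutive beta subunits, which form the inner rings, ran from -0.04 (Psmb5) to 0.12 (Psmb3), with 4 below 0 and 3 above. Over the 14 genes the fitted fold lay between 0.869 and 1.09, and their 95% intervals lay within 0.729 to 1.37, which bounds the change these libraries leave room for.

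Psmb5, the chymotrypsin-like subunit, had 92.6, 94.7 and 104 CPM in p27OE libraries and 93.2, 104 and 102 CPM in EV control libraries. Psmb6, the caspase-like subunit, had 149, 144 and 151 CPM in p27OE libraries and 132, 148 and 143 CPM in EV control libraries. Psmb7, the trypsin-like subunit, had 145, 151 and 165 CPM in p27OE libraries and 129.9, 169 and 165 CPM in EV control libraries. The groups overlapped for each of them, and EV control 1 was the lowest library for Psmb6 and Psmb7. Their log2 fold changes were -0.04 ± 0.08, 0.07 ± 0.07 and -0.01 ± 0.12 (SE; adjusted p = 0.816, 0.602 and 0.984 by edgeR for Psmb5, Psmb6 and Psmb7).

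Psma3, an alpha ring subunit, had the lowest fold change of the core. It had 148, 152 and 173 CPM in p27OE libraries and 161, 192 and 191 CPM in EV control libraries, so p27OE 3 lay above the lowest EV control library. Its log2 fold change was -0.20 ± 0.11 (SE; adjusted p = 0.280 by edgeR). Psma6, another alpha subunit, had the smallest p of the core, with 101, 98.3 and 105 CPM in p27OE libraries and 104, 119 and 115 CPM in EV control libraries. Its log2 fold change was -0.15 ± 0.08 (SE; adjusted p = 0.268 by edgeR). At the other end, Psmb3 had 114, 123 and 136 CPM in p27OE libraries and 93.0, 127 and 125 CPM in EV control libraries (log2 fold change 0.12 ± 0.14, SE).

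In the 19S regulator, 4 of 17 genes were above 0 and 13 below, and edgeR called none of them; the smallest adjusted p was 0.361. The 6 ATPases (Psmc1 to Psmc6), the ring that unfolds substrates, ran from -0.09 (Psmc2) to 0.03 (Psmc4) on the log2 fold scale. The 11 other subunits, which hold the ubiquitin receptors, the deubiquitinase Psmd14 and the lid scaffold, ran from -0.22 (Psmd12) to 0.09 (Psmd4). The lid subunit Psmd12 had 78.1, 86.0 and 94.8 CPM in p27OE libraries and 82.4, 109.8 and 109 CPM in EV control libraries. The ubiquitin receptor Psmd4 had 128, 132 and 145 CPM in p27OE libraries and 112, 136 and 133 CPM in EV control libraries. Both genes overlapped between groups, and the lowest value of EV control came from library 1 each time.

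Psmd8, a lid subunit, varied more within its groups than any other 19S gene. It had 237, 301 and 427 CPM in p27OE libraries and 224, 378 and 348 CPM in EV control libraries. The highest and the lowest library of either group were thus far apart while the log2 fold change was 0.02 ± 0.27 (SE), with a 95% interval of -0.63 to 0.68.

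The 20S core and 19S genes varied together across libraries, with overlap between the groups for each. Summed over the 31 genes, their level was 4328, 4515 and 5129 CPM in p27OE libraries and 4180.0, 5258 and 5163 CPM in EV control libraries. The lowest sum was EV control 1, p27OE 1 was the next, and p27OE 3 lay beside EV control 2 and 3. For 31 of the 31 genes, EV control 1 was the lowest EV control library and p27OE 3 the highest p27OE library. Over all genes tested that was so for 27.02%. Set against each gene's mean log2 CPM in EV control, the median difference was -0.14, -0.09 and 0.04 in p27OE 1, 2 and 3, and -0.20, 0.11 and 0.10 in EV control 1, 2 and 3.

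Within each group, that order followed the Y-linked level, which was lowest in the libraries numbered 1. Across groups it did so only in part, as p27OE 3 had the highest Y-linked level but a lower sum than EV control 2 and 3. The part of the Y-linked level in this order was not tested. Between the libraries low in Y-linked RNA (p27OE 1 minus EV control 1), the median difference of the 31 genes was 0.06 on the log2 CPM scale. Between those high in it (p27OE 3 minus the mean of EV control 2 and 3), it was -0.04. Each of these rests on 1 p27OE library and has no test.

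**Figure D2:**
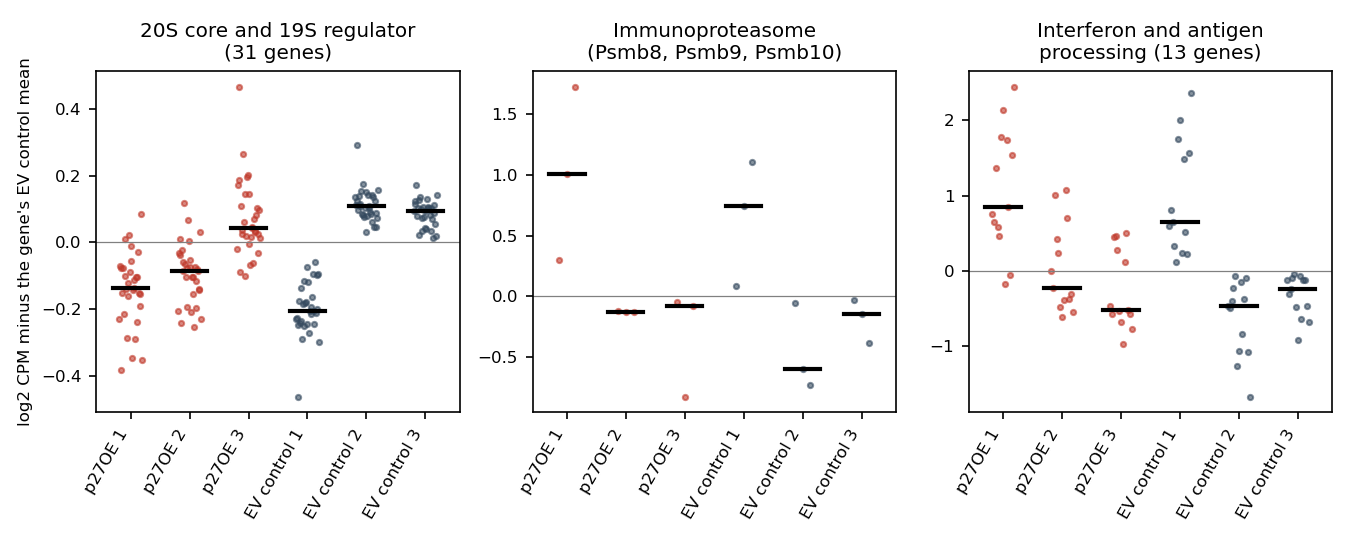
Log2 CPM of each gene minus its EV control mean (vertical axis, scaled separately in each panel) by library, for the 20S core and 19S genes, the immunoproteasome genes and the interferon and antigen processing genes; points are genes and bars are medians. The core and 19S medians are lowest in EV control 1, at -0.20, and p27OE 1, at -0.14, the libraries in which the immunoproteasome and interferon medians are highest.

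Immunoproteasome genes were present at low levels in both groups, and edgeR called none of them. Psmb8 (LMP7, the inducible counterpart of Psmb5) had 6.36, 2.87 and 1.75 CPM in p27OE libraries and 5.28, 2.07 and 2.83 CPM in EV control libraries. Psmb9 (LMP2, the counterpart of Psmb6) had 63, 17 and 15 counts in p27OE libraries and 35, 13 and 13 counts in EV control libraries. Psmb10 (MECL-1, the counterpart of Psmb7) had 17.1, 12.8 and 13.4 CPM in p27OE libraries and 14.7, 13.3 and 13.6 CPM in EV control libraries. For each of the 3 genes the highest library of a group was the one numbered 1, and the groups overlapped. The log2 fold changes were 0.12 ± 0.55 for Psmb8, 0.62 ± 0.77 for Psmb9 and 0.05 ± 0.13 for Psmb10 (SE; adjusted p = 0.917, 0.660 and 0.835 by edgeR). Their 95% intervals were -1.21 to 1.44, -1.24 to 2.48 and -0.27 to 0.37, so a 2-fold change of Psmb8 or Psmb9 in either direction was not excluded at this depth and spread, while one of Psmb10 lay outside its interval.

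Part of the Psmb9 count is uncertain, because 212 of its exonic bases overlap Tap1 on the opposite strand in GENCODE M21. The strand setting of the counting is not given in the sources used here, so reads there cannot be told apart. Psmb8 likewise shares 498 exonic bases with the predicted gene Gm20496, and Psmb7 shares 405 with Nek6.

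Each inducible subunit was also set against the subunit that it replaces. Psmb8 stood at 6.91%, 3.08% and 1.72% of the Psmb5 CPM in p27OE libraries and at 5.70%, 2.03% and 2.82% in EV control libraries. Psmb9 stood at 0.940%, 0.271% and 0.267% of Psmb6 in p27OE libraries and at 0.695%, 0.173% and 0.229% in EV control libraries. Psmb10 stood at 11.8%, 8.48% and 8.15% of Psmb7 in p27OE libraries and at 11.4%, 7.93% and 8.29% in EV control libraries. Library 1 held the highest share in both groups for each pair, and the groups overlapped. The differences in log2 ratio, p27OE minus EV control, were 0.05, 0.44 and 0.04 (two-sided exact permutation test, p = 0.9, 0.5 and 0.6, each 0.9 after Benjamini-Hochberg adjustment over the 3 pairs). With 3 libraries a group, the smallest p this test can give is 0.1.

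**Figure D3:**
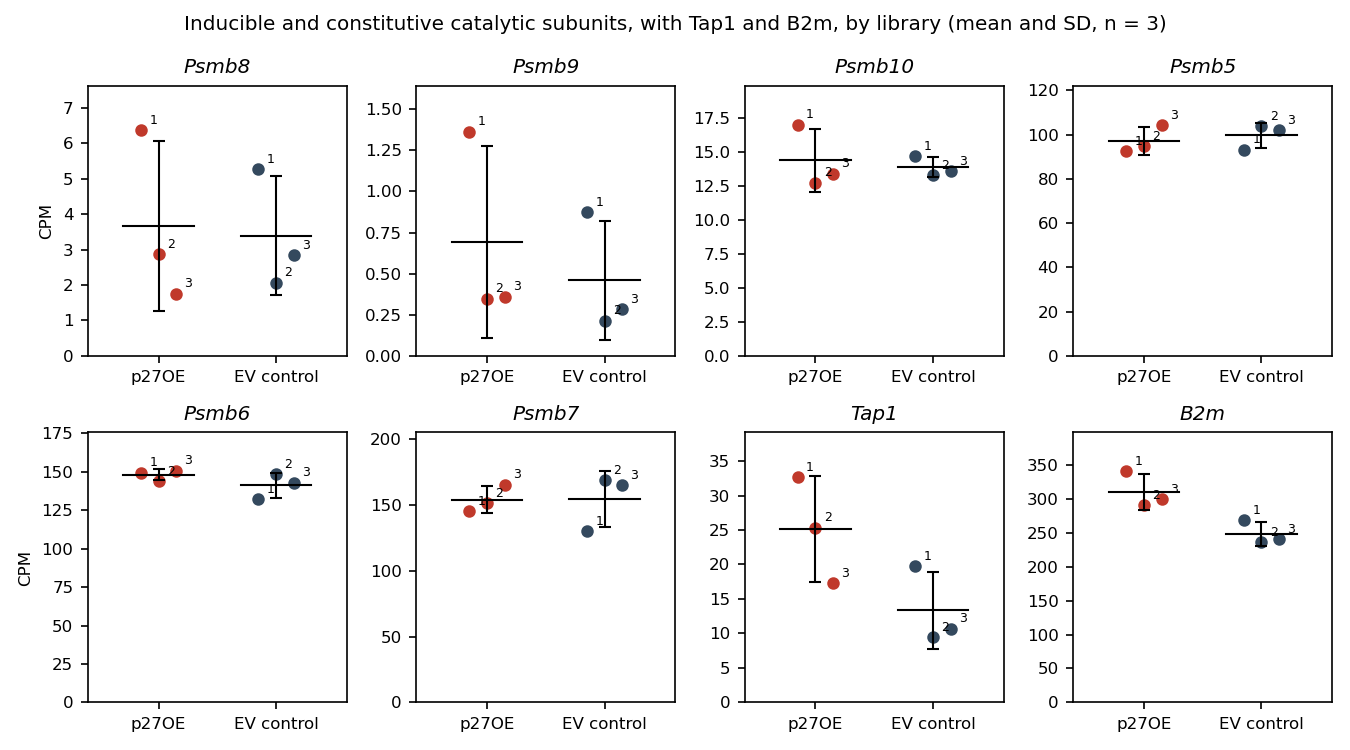
CPM of the inducible subunits Psmb8, Psmb9 and Psmb10, the constitutive subunits Psmb5, Psmb6 and Psmb7, and Tap1 and B2m; each point is 1 library with its number, and bars are mean and SD (n = 3). Library 1 is the highest of both groups for the inducible subunits, at 6.36 CPM in p27OE and 5.28 CPM in EV control for Psmb8, while Psmb5 stays between 92.6 and 104 CPM.

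Per length, the inducible subunits were far below the constitutive ones. Divided by the length of the principal transcript, the mean level of the 14 core genes ran from 47.7 (Psma2) to 186 (Psmb6) CPM per kb in p27OE cells and from 46.6 to 177 CPM per kb in EV control cells. The 3 inducible genes ran from 0.511 (Psmb9) to 11.0 (Psmb10) CPM per kb in p27OE cells and from 0.339 to 10.6 CPM per kb in EV control cells. The 17 genes of the 19S regulator ran from 36.7 (Psmd11) to 209 (Psmd8) CPM per kb in p27OE cells and from 38.9 to 206 CPM per kb in EV control cells. The order within the core depended on the length used, and with all exons counted Psmb5 was the highest core gene, at 108 CPM per kb in p27OE cells and 111 CPM per kb in EV control cells.

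Like the inducible subunits, the interferon and antigen processing genes were highest in library 1 of each group. This held for 13 of 13 of them, both in p27OE and in EV control. Over all genes tested, p27OE 1 was the highest p27OE library for 40.3%, and EV control 1 the highest EV control library for 45.3%. By edgeR 0 of the 13 were called. An unadjusted p under 0.05 was found for 4, B2m, Tapbp, Tap2 and Tap1, each higher in p27OE. Of the 13, 10 were above 0 and 3 below, and the median log2 fold change was 0.15. DESeq2 called 3 of them higher, B2m (adjusted p = 0.0229), Tapbp (adjusted p = 0.0425) and Tap1 (adjusted p = 0.0470). With edgeR, 4 were called higher and 0 lower without both libraries numbered 1, and 3 higher and 0 lower without EV control 1. Of all genes tested, DESeq2 called 16.6%, and edgeR called 16.5% without both libraries numbered 1 and 13.2% without EV control 1. Tap1, a subunit of the peptide transporter encoded next to Psmb9, had 32.7, 25.3 and 17.3 CPM in p27OE libraries and 19.8, 9.51 and 10.7 CPM in EV control libraries (log2 fold change 0.92 ± 0.34, SE; adjusted p = 0.161 by edgeR). Irf1, a factor known to induce Psmb9, had 21.0, 18.1 and 12.0 CPM in p27OE libraries and 27.8, 21.3 and 22.5 CPM in EV control libraries. Its log2 fold change was -0.49 ± 0.22 (SE, adjusted p = 0.220 by edgeR). Tap1 and Irf1 thus lay on opposite sides of 0. The groups overlapped for Tap1 but not for Irf1, where every p27OE library was below every EV control library. Of the 13 genes, 3 (23.1%) did not overlap, B2m and Tapbp with p27OE above and Irf1 with p27OE below. Over all genes tested, the groups did not overlap for 33.3%.

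Macrophages carry immunoproteasomes at a high level. Their 14 markers in the table (Csf1r, C1qa, Lyz2 and others, none of them at 0 in any library) summed to 21.1, 32.1 and 40.6 CPM in p27OE libraries and to 106, 26.9 and 20.9 CPM in EV control libraries. EV control 1 was thus the highest library for these markers, whereas p27OE 1, with the highest Psmb8, Psmb9 and Psmb10, was the lowest of its group. Their part in the inducible subunits was not tested. In RNA from whole cultures, fewer cells of a type and less RNA per cell cannot be told apart.

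The start regions of Psmb5 and of the inducible Psmb8 and Psmb9 are shown because the inducible genes were highest, and Psmb5 lowest, in the libraries numbered 1 (RefSeq, GRCm38.p6, 250 bases before to 50 after the gene start, 5′ to 3′ on the strand of the gene). Psmb5 is at chr14:54617946-54618245 (minus strand), Psmb8 at chr17:34197945-34198244 (plus strand) and Psmb9 at chr17:34187281-34187580 (minus strand). Capitals mark TGACNNNGC, the core of the antioxidant response element, in Psmb5, TTCNNNGAA, the gamma-activated sequence, in Psmb8, and CCAAT on the other strand in Psmb9.
Psmb5: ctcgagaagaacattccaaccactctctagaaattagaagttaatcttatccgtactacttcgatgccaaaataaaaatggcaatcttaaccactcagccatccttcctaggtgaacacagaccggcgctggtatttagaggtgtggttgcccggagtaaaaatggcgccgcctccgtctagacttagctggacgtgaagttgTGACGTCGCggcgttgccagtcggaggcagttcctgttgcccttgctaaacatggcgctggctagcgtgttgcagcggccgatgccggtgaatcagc
Psmb8: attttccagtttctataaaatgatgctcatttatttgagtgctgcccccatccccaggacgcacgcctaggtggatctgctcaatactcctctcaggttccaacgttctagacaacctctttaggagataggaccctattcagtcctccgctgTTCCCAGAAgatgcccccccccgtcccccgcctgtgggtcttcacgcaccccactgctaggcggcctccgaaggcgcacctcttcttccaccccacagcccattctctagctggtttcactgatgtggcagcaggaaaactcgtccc
Psmb9: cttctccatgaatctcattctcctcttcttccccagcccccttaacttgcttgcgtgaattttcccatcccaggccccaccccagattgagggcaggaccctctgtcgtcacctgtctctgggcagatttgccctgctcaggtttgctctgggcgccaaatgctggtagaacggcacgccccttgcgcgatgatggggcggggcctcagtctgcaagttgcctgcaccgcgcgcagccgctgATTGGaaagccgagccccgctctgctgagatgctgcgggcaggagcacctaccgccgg
The matches began at -47 from the RefSeq start in Psmb5, at -97 in Psmb8 and at -8 in Psmb9. In GENCODE M21, Psmb8 starts at 34197721 and Psmb9, on the minus strand, at 34187764, so both windows lie inside the genes as annotated there.

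Start regions of the same kind were at hand for 42 of the 50 genes, and 4 patterns were searched on both strands. TGACNNNGC was in 6 of 42 (14.3%), against 13.99% of the 27025 mouse genes in the same table. GAAA followed by NN and GAAA, the core of the interferon-stimulated response element, was in 5 (11.9%), against 3.99%. These 5 were Psmb3, Psmd4, Psmd9, Psme1 and Psmg4, and the windows of Psmb8, Psmb9 and Psmb10 did not hold it. TTCNNNGAA, which reads the same on both strands, was in 3 (7.14%), against 9.55%. CCAAT was in 15 (35.7%), against 41.1%. These are matches of letters and not binding sites, and no match says only that the letters are not in this window.

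The activators that cap the core, and its inhibitor, did not change by the test, with 0 of 6 genes called. Psme1 and Psme2, the interferon-inducible subunits of PA28, had log2 fold changes of -0.03 ± 0.11 and 0.03 ± 0.14 (SE; adjusted p = 0.903 and 0.925 by edgeR). Psme1 had 47.0, 39.8 and 38.1 CPM in p27OE libraries and 47.5, 39.8 and 40.1 CPM in EV control libraries, and Psme2 had 53.8, 49.2 and 47.6 CPM in p27OE libraries and 59.7, 43.4 and 44.8 CPM in EV control libraries. Library 1 was again the highest of each group for both. Psme3, the nuclear PA28 gamma, had 120.2, 128 and 129 CPM in p27OE libraries and 127, 144 and 146 CPM in EV control libraries (log2 fold change -0.15 ± 0.08, SE; adjusted p = 0.317 by edgeR). Psme4 (PA200) and the inhibitor Psmf1 (PI31) had log2 fold changes of -0.03 ± 0.09 and 0.08 ± 0.08 (SE). Psme2b, a close copy of Psme2 whose reads may be split with it, had 14, 24 and 41 counts in p27OE libraries and 9, 24 and 19 counts in EV control libraries, and its log2 fold change of 0.76 ± 0.52 (SE) is uncertain.

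The assembly chaperones held the only called gene. Psmg1 to Psmg4 (PAC1 to PAC4) guide the building of the alpha ring, PAC1 and PAC2 as one pair and PAC3 and PAC4 as another, while Psmd5, Psmd9 and Psmd10 assist the base of the 19S regulator. Psmg1 fell, at 20.9, 20.7 and 17.7 CPM in p27OE libraries against 28.1, 31.3 and 30.7 CPM in EV control libraries. Every p27OE library was below every EV control library. The means were 19.8 ± 1.78 CPM in p27OE cells and 30.1 ± 1.70 CPM in EV control cells (SD, n = 3 each). The log2 fold change was -0.60 ± 0.10 (SE; edgeR quasi-likelihood, adjusted p = 0.0416), a fold of 0.658 with a 95% interval of -0.84 to -0.37 on the log2 scale. Between p27OE 1 and EV control 1 the log2 difference was -0.42, and between p27OE 3 and the mean of EV control 2 and 3 it was -0.81. The call was near the threshold: without 1 library at a time the log2 fold change stayed between -0.66 and -0.53, while the adjusted p was 0.0244 without EV control 1 and between 0.0732 and 0.206 without each of the others. With library totals in place of TMM factors the adjusted p was 0.0534.

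Psmg1 lies on chromosome 16 at 95979933 to 95990960 (GRCm38), and no exon of another annotated gene overlaps its exons. Its start region (RefSeq, GRCm38.p6, chr16:95990911-95991210, minus strand), shown as that of the called gene, has TTCNNNGAA at -243, in capitals.
Psmg1: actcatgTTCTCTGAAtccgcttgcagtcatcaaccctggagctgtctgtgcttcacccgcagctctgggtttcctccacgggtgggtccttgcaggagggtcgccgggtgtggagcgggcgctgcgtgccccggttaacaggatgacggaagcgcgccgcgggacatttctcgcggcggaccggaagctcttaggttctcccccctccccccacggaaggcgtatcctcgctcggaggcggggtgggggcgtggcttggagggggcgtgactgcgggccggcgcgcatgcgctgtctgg
None of the other 3 patterns searched was in it.

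Psmg2, the partner of Psmg1 in the PAC1 and PAC2 pair, had 19.1, 19.6 and 16.5 CPM in p27OE libraries and 25.95, 24.1 and 23.5 CPM in EV control libraries. The groups did not overlap, and the means were 18.4 ± 1.66 CPM in p27OE cells and 24.5 ± 1.29 CPM in EV control cells (SD, n = 3 each). Its log2 fold change was -0.41 ± 0.10 (SE), with a 95% interval of -0.65 to -0.18, and it did not pass by edgeR (adjusted p = 0.0681), whereas DESeq2 called it (adjusted p = 0.0051).

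In the other pair the values differed. Psmg3 had 20.5, 18.9 and 17.3 CPM in p27OE libraries and 17.95, 19.1 and 19.5 CPM in EV control libraries, with a log2 fold change of 0.00 ± 0.09 (SE) and a 95% interval of -0.22 to 0.23. Psmg4 had 8.66, 7.83 and 5.38 CPM in p27OE libraries and 9.48, 8.53 and 8.63 CPM in EV control libraries, with a log2 fold change of -0.28 ± 0.19 (SE; adjusted p = 0.403 by edgeR). The log2 ratio of Psmg1 to Psmg3 CPM was 0.03, 0.13 and 0.03 in p27OE libraries and 0.65, 0.71 and 0.65 in EV control libraries. This ratio was chosen after its values were seen and has no test, and it was nearly the same in every library of a group. Other ratios were less even. In EV control libraries the log2 ratio of Psmg2 to Psmg3 was 0.53, 0.33 and 0.27, and of Psmg1 to Psmg2 0.12, 0.38 and 0.39. Psmg3 shares 280 exonic bases with the gene Gm26938 on the same strand, so part of its count is uncertain.

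**Figure D4:**
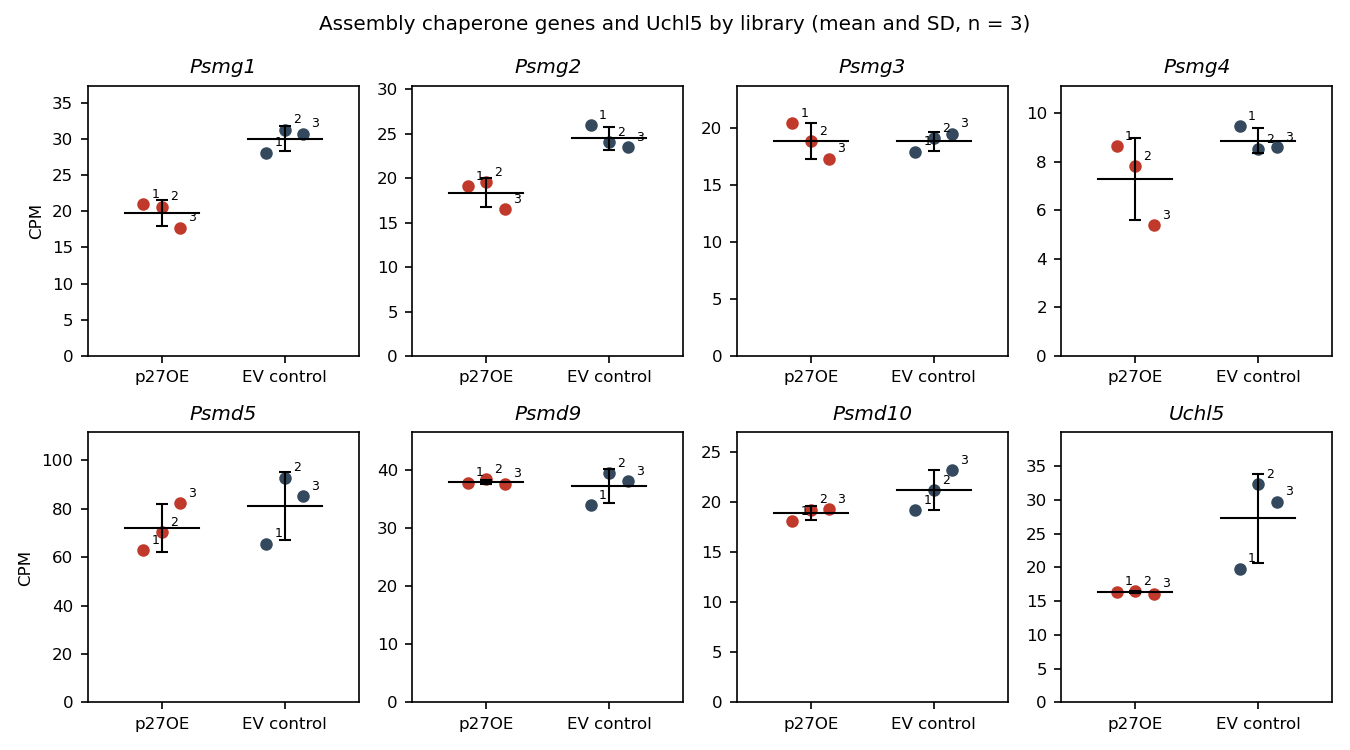
CPM (vertical axes from 0) of the assembly chaperone genes and of Uchl5, a deubiquitinase described further on, in p27OE and EV control libraries; each point is 1 library with its number, and bars are mean and SD (n = 3). For Psmg1 the p27OE libraries, from 17.7 to 20.9 CPM, lie below the EV control libraries, from 28.1 to 31.3 CPM, and for Psmg3 the groups overlap.

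The 3 chaperones of the 19S base did not pass the test. Psmd5 and Psmd10 had log2 fold changes of -0.17 ± 0.16 and -0.17 ± 0.10 (SE), with overlap between groups for each. Psmd9, whose protein has also been called p27 in the proteasome field and is unrelated to Cdkn1b, had 37.8, 38.4 and 37.7 CPM in p27OE libraries and 34.0, 39.5 and 38.1 CPM in EV control libraries. Its log2 fold change was 0.03 ± 0.08 (SE). It shares 1849 exonic bases with the predicted gene Gm26745, so its count may hold reads of both.

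Genes of tissue-restricted cores were near the limit of detection. Psma8, the alpha subunit of the testis core, had 59, 85 and 50 counts in p27OE libraries and 14, 56 and 40 counts in EV control libraries. In CPM every p27OE library, at 1.28, 1.74 and 1.202, was above every EV control library, at 0.350, 0.926 and 0.878, and EV control 1 was the lowest. The log2 fold change was 0.96 ± 0.41 (SE), and it did not pass (adjusted p = 0.205 by edgeR). Psmb11, the beta subunit of the thymus core, had 3, 1 and 0 counts in p27OE libraries and 0, 3 and 3 counts in EV control libraries, and no fold is given.

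Psmc3ip, matched by name alone, had 5.67, 4.49 and 2.93 CPM in p27OE libraries and 5.10, 8.10 and 7.75 CPM in EV control libraries. The groups overlapped through EV control 1, and the log2 fold change was -0.68 ± 0.29 (SE; adjusted p = 0.205 by edgeR). The log2 difference was 0.15 between the libraries low in Y-linked RNA and -1.42 between those high in it. Without both libraries numbered 1 it was called (log2 fold change -1.11, adjusted p = 0.0391).

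The table held 25 other genes of the pathway (assembly and binding partners, shuttles, ubiquitin genes and regulators of subunit transcription). Among these, edgeR called 0, with 2 at an unadjusted p under 0.05. DESeq2 called 2 of the 25, both lower, Uchl5 and Rps27a, and it called 16.6% of all genes tested. By edgeR 11 of the 25 were above 0 and 14 below, with a median log2 fold change of -0.04. The maturation factor Pomp, at 0.10 ± 0.13 (SE), and the ubiquitin receptor Adrm1, at 0.05 ± 0.12 (SE), overlapped between groups. Uchl5, the deubiquitinase that docks on Adrm1, had 16.4, 16.4 and 16.1 CPM in p27OE libraries and 19.8, 32.3 and 29.7 CPM in EV control libraries. No library overlapped, EV control 1 lay nearest to p27OE, and the log2 fold change of -0.74 ± 0.18 (SE) did not pass by edgeR (adjusted p = 0.0713), whereas DESeq2 called it (adjusted p = 0.0050), as did edgeR without both libraries numbered 1 (adjusted p = 0.0233). Rps27a, which encodes ubiquitin fused to a ribosomal protein, had 627, 597 and 596 CPM in p27OE libraries and 778, 744 and 739 CPM in EV control libraries. It did not overlap either, and its log2 fold change of -0.31 ± 0.07 (SE) did not pass by edgeR (adjusted p = 0.0688). DESeq2 called Rps27a (adjusted p = 1.6e-05), as did edgeR without both libraries numbered 1 (adjusted p = 0.0386). Of the 25 genes, 3 (12%) did not overlap, 2 below and 1 above, against 33.3% of all genes tested. The gene above was Akirin2, with 43.5, 43.3 and 43.0 CPM in p27OE libraries and 41.9, 41.4 and 41.0 CPM in EV control libraries.

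Nfe2l1 (NRF1) is the transcription factor that raises subunit genes when proteasome activity falls, and Ngly1 and Ddi2 are needed for its activation. Nfe2l1 had 381, 423 and 514 CPM in p27OE libraries and 391, 338 and 345 CPM in EV control libraries, with overlap through EV control 1 (log2 fold change 0.30 ± 0.13, SE; adjusted p = 0.215 by edgeR). Ngly1 had 33.1, 29.3 and 28.6 CPM in p27OE libraries and 29.0, 23.9 and 23.4 CPM in EV control libraries (log2 fold change 0.26 ± 0.11, SE; adjusted p = 0.211 by edgeR). Ddi2 had 16.6, 17.9 and 17.0 CPM in p27OE libraries and 17.0, 18.3 and 18.8 CPM in EV control libraries. Its log2 fold change was -0.07 ± 0.08 (SE, adjusted p = 0.648 by edgeR). The p27OE libraries were mostly the higher ones for Nfe2l1 and Ngly1 but not for Ddi2, and none of these genes passed.

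The number of calls depended on the model. With a term for how much Y-linked RNA each library held, chosen with those levels known, 34% of all genes were called, 18% higher and 16% lower. In that model 5 proteasome genes passed: Psmb3 was higher (log2 fold change 0.18), and Psma3, Psmd12, Psmg1 and Psmg2 were lower. As a share of the 48 proteasome genes that was below the share of all genes. With DESeq2, 16.6% of all genes were called, and the proteasome genes called were Psmg1 and Psmg2. Without both libraries numbered 1, 16.5% of all genes were called, and Psmg1 was the proteasome gene called (log2 fold change -0.71, adjusted p = 0.0251).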

How the data were processed

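Messenger RNA was counted in 6 MEF samples, 3 p27OE and 3 EV control. Per the labels' protocols, RNA came from RNeasy Micro columns and the TruSeq RNA Library Prep Kit v2 was used for libraries. featureCounts 1.4.6, Subread, Bowtie2 2.2.6, TopHat2 2.0.14 and the mm10 genome are named per the submitters' processing notes. Annotation and strand setting are not given in the sources used here. What the authors deposited is 1 table of raw read counts by gene symbol, without normalisation and with 0 mitochondrial rows. Precision rests on library totals of 39183624 to 61219345 counts. Averaged over genes, the spread between libraries of a group exceeded counting error, but the 2 were not compared gene by gene.

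Genes were kept by filterByExpr (13990 of 24062), scaled by TMM and tested with edgeR 4.0.16 (robust quasi-likelihood, group as the only term, two-sided) in R 4.3.3. Adjustment was by Benjamini-Hochberg over all genes tested, with calls at an adjusted p under 0.05. SEs and 95% intervals belong to the log2 fold changes of that fit. Log2 CPM used a prior count of 2. Pair ratios were tested by exact permutation. The code was tested on simulated counts. Coordinates and lengths came from GENCODE M21 (GRCm38), and start regions from RefSeq.

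The members and gene lists were chosen with earlier results of these data known, and so were the alternatives that use the Y-linked level or leave out both libraries numbered 1. The genes described singly were the catalytic, inducible, activator and PAC genes, the extremes of each class and the members with the smallest p; others were chosen after their values were seen, and 1 gene named by that rule is not reported here. Alternatives were RLE or total-count scaling, no filter, DESeq2 1.42.0, the replicate number as a block, and each library left out. Within groups, no library repeated another within sampling noise. EV control 2 and 3 were by far the closest pair, with a chi-square per gene between their counts of 6.49. For the other pairs within groups it was 55.5 to 188. Same-numbered libraries deviated together with correlations of 0.67, 0.04 and 0.50, and 1 of them was under 0.1, so pairing by number was not assumed.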

Additional observations from a re-analysis of the deposited data

How the results depend on the processing

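No called result changed direction under the alternatives run, and no class median or pair ratio moved by more than the spread between libraries. That spread was wide, and signs changed without 1 library at a time. The differences in log2 ratio ran from -0.47 to 0.53 (Psmb8 pair), -0.17 to 1.03 (Psmb9 pair) and -0.13 to 0.20 (Psmb10 pair). The class median ran from -0.36 to 0.57 for the immunoproteasome. Medians of the constitutive beta, ATPase and activator classes crossed 0 too, and those of the other classes stayed below 0. Between 0 and 10 of the uncalled members changed sign in each alternative. Without 1 library the log2 fold change of Psmb8 ran from -0.56 to 0.57 and of Psmb9 from -0.36 to 1.46. Of all genes tested, 365 were called, against 2321 with DESeq2, 2410 with the replicate number as a block, 4761 with a Y-linked term and 2305 once both libraries numbered 1 were dropped. Dropping 1 library gave between 1 and 1842. Of the 49 members tested, 1 was called, against 0 with library totals, 2 with DESeq2, 2 with the block, 5 with the Y-linked term and, with both libraries numbered 1 dropped, 2 (Psmg1 and Psmc3ip), and between 0 and 1 without 1 library, the 1 being without EV control 1. With the block, 4 of the 13 interferon and antigen processing genes were called higher and 1 lower, and 2 of the 25 other pathway genes lower; with the Y-linked term these were 4 higher and 2 lower, and 3 higher and 4 lower. With the block, Psmg1 had an adjusted p of 0.0163 and Psmg2 of 0.0299. The Cdkn1b log2 fold change ran from 2.48 to 2.97 without 1 library, and its call held without EV control 1 alone. The cause of these shifts was not tested. Depth limits Psmb9, Psmb11, Psma8 and Psme2b. For the other genes, counting error and the spread between libraries were not separated.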
